A study of Ictidomys tridecemlineatus with 15 samples.

Results

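Cones were compared with photoreceptor precursors of the same libraries in the postnatal retina of a cone-rich rodent, the 13-lined ground squirrel (13LGS). The cells were taken by their deposited cell type names, Cone and Photoprecursor, from every library of postnatal day 8 (P8) and postnatal day 12 (P12) that held at least 10 cells of both. A library was the time point plus the suffix of the cell name, and 3 libraries qualified, called P8a, P12a and P12b. They held 1323 such cells, 1036 cones and 287 precursors, of the 53394 cells in the matrix. The other P8 library, P8b, held 669 precursors and no cone, which allows a cone share of up to 0.448% of its cones and precursors, and it did not enter the comparison.

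Whole retinas came from captive-bred litters and were either methanol-fixed or flash-frozen, with nuclei taken from the frozen ones, and the labels do not say which was done for each library. The libraries were made with 10x Chromium 3′ v3.1 chemistry, in which a unique molecular identifier (UMI) marks each captured transcript and a count is thus a count of molecules. The labels name no treatment or altered allele for any library, and the P8 and P12 libraries differ in age by label. The labels do not say that the libraries of a time point came from separate animals, so p-values measure the spread between these libraries, which may be technical.

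Cones are the photoreceptors of daylight and colour vision, and rods those of dim light. Both arise from postmitotic precursors that progenitors leave behind on exit from the cell cycle, and bipolar cells, the interneurons that photoreceptors drive, arise late from related cells. A precursor that becomes a cone switches on its phototransduction cascade, its outer segment proteins and its ribbon synapse.

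The files do not pair gene names with matrix rows, so a gene is given below by its row number in the matrix, counted from 1, and at most 2 rows that rose and 2 that fell are named. The levels of known cone, rod or precursor genes therefore could not be read, and the annotated types were checked against cells of other libraries instead.

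P8a held 82 cones and 157 precursors, P12a held 570 cones and 36 precursors, and P12b held 384 cones and 94 precursors. Cones were thus 34.3% of the cells of both types in P8a (95% Wilson interval 28.6% to 40.5%), 94.1% in P12a (91.9% to 95.7%) and 80.3% in P12b (76.5% to 83.7%). The intervals, here and below, cover counting error only. None of the 3 intervals overlapped another, so the P12 libraries differed from each other by more than counting error, and with 1 library of P8 in the comparison age and library cannot be told apart.

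Cones yielded fewer UMIs than precursors in every library. The median cone had 2341 UMIs in P8a, 3256 in P12a and 5256 in P12b, against 4338, 4360.5 and 7056 UMIs in the median precursor. Summed over cells, the cones gave 252983, 2658562 and 2637223 UMIs and the precursors 882624, 182302 and 1122429 UMIs. At equal depth the order of detected genes was the other way round. With each cell thinned to 1000 UMIs, the median cone had 662 genes in P8a, 695 in P12a and 667 in P12b, and the median precursor 647, 678 and 653 genes. Without thinning the medians were 1323.5, 1758 and 2310.5 genes in cones and 2011, 2100.5 and 2899.5 genes in precursors. At 1000 UMIs, 8 cones and 1 precursor were too shallow and were left out. In these sums and medians, fewer molecules in the cell and poorer capture cannot be told apart.

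The annotation was checked by finding, for each cell, the annotated type of P4, P8b, P17 and P21 whose mean profile it correlated with best (the nearest profile), none of which entered the comparison. Of the precursors, 66.9% (192 of 287) lay nearest the precursor profile and 30.3% (87) nearest the bipolar profile. Of the cones, 44.7% (463 of 1036) lay nearest the cone profile, 45.8% (474) nearest the precursor profile and 9.27% (96) nearest the bipolar profile. In P8a, 93.9% of the cones (77 of 82, 86.5% to 97.4%) lay nearest the precursor profile and 2 lay nearest the cone profile, which came from older animals. In P12a, 69.4% of the precursors (25 of 36, 53.1% to 82.0%) lay nearest the bipolar profile, and in P12b 48.9% (46 of 94, 39.1% to 58.9%) did. The reference precursors were from P4 and P8, so the age of the reference moved together with these shares, and its part in them was not tested.

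With reference profiles of matched age, taken from one P12 library and applied to the other, 78.4% of the P12a cones (447 of 570, 74.9% to 81.6%) and 383 of the 384 P12b cones lay nearest the cone profile. The precursors of the 2 libraries fell differently. Of the P12a precursors, 66.7% (24 of 36, 50.3% to 79.8%) lay nearest the precursors of P12b, 6 lay nearest bipolar cells and 1 nearest cones. Of the P12b precursors, 55.3% (52 of 94, 45.3% to 65.0%) lay nearest the precursors of P12a, 38.3% (36, 29.1% to 48.4%) nearest cones and none nearest bipolar cells. Many precursors behind these 2 profiles had lain nearest the bipolar profile of the other libraries, 25 of 36 in P12a and 46 of 94 in P12b. A bipolar-like precursor could thus lie nearest the precursors here, and this check cannot separate the 2 likenesses. The annotation rested on clusters of these same cells, so the tests below are not independent of it, and the rows that set the clusters could not be identified.

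For the comparison of expression, UMIs were summed per library and type, since cells of a library are not replicates. The 6 sums were tested with edgeR's quasi-likelihood test with the library as a block, and called rows are those with a p below 0.05 after Benjamini-Hochberg adjustment. Of 9272 rows tested, 630 were called, or 6.79%. Cones were higher in 288 rows (3.11%) and lower in 342 rows (3.69%). Without adjustment, 1612 rows had a p below 0.05. The median log2 change over all tested rows was -0.01. Changes of at least 2-fold made up 103 of the higher and 176 of the lower rows, and changes of at least 4-fold 6 and 11. The count moved with the libraries, and so did the number of rows that passed the filter and were tested. Without P12a the test called 98 rows higher and 121 lower of 9458 tested. Without P12b it called 117 and 116 of 7252, and without P8a 367 and 428 of 11739. Without the library block it called 1 row higher and none lower.

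The higher rows had a median fold change of 1.84 (interquartile range 1.54 to 2.19) and a median level in cones of 110 CPM, the UMIs of a row when its sum is scaled to 1000000. The lower rows had a median fold change of 2.03 (1.58 to 2.66) and a median level in precursors of 92.3 CPM. The median log2 ratio of cones to precursors over the higher rows was 0.85 in P8a, 0.96 in P12a and 0.79 in P12b, and over the lower rows -0.66, -0.86 and -1.02. Of the 288 higher rows 278 were higher in cones in each of the 3 libraries, and of the 342 lower rows 306 were lower in each. The 3 cone sums lay wholly above or below the 3 precursor sums for 154 of the higher and 164 of the lower rows, against 10.3% of all tested rows (953).

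**Figure D1:**
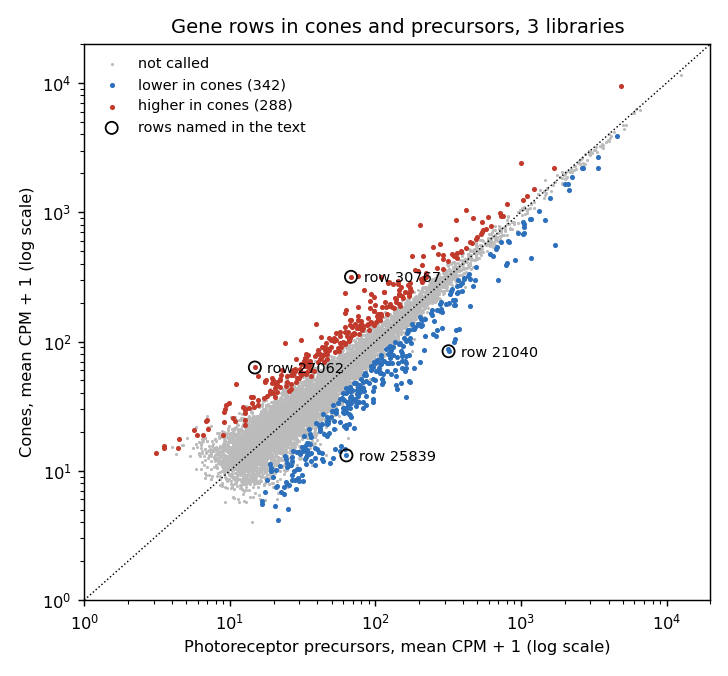
Mean level of each tested row in precursors (x axis) and cones (y axis) over the 3 libraries, in CPM plus 1 on log scales. Red points are the 288 rows called higher in cones, blue points the 342 called lower, grey points the rows not called, rings the 4 rows named in the text, and the dotted line marks equal levels.

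Called rows lie on both sides of the line of equal levels across the whole range of expression in the plot of mean CPM. Of the rows called higher, 8 reached 1000 CPM in cones, and of those called lower, 22 reached 1000 CPM in precursors. Together the higher rows took 6.17% of all UMIs of the cones in P8a, 7.45% in P12a and 7.35% in P12b, against 3.5%, 4.15% and 4.42% of the UMIs of the precursors. The lower rows took 13.1%, 15.5% and 12.2% in cones and 17.2%, 20.8% and 16.4% in precursors.

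The 4 named rows were those with the largest changes that went the same way in every library, did not overlap between types and reached at least 50 CPM in the higher type. Row 30767 was present at 265 CPM in cones and 54.4 CPM in precursors of P8a, at 369 and 65.8 CPM in P12a, and at 309 and 71.3 CPM in P12b. The mean was 314 ± 52.1 CPM in cones and 63.8 ± 8.62 CPM in precursors (SD, n = 3). The precursor sums were close to one another and far below every cone sum. The log2 change was 2.16 (SE 0.13, edgeR adjusted p = 3.22e-08), and this row alone was called without the library block (adjusted p = 0.0154). Bipolar cells of the same libraries had 6.67 to 16.8 CPM and amacrine cells 1.68 to 15.7 CPM, below the level in precursors in each library. Rods had more of this row than cones at P12, 606 CPM in P12a (16 cells) and 461 CPM in P12b (14 cells).

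Row 27062 was also higher in cones, with a log2 change of 1.84 (SE 0.24, adjusted p = 0.000103 in edgeR). It stood at 31.6, 65.1 and 87.6 CPM in the cones of P8a, P12a and P12b and at 6.8, 5.49 and 26.7 CPM in their precursors. The P12a value of the precursors was a single UMI. Rods had far more of it than either type, 1659 CPM in P12a and 2096 CPM in P12b. Bipolar cells had 0 to 6.05 CPM. In P12a the precursors were therefore no higher than the bipolar cells.

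Row 25839 was lower in cones, with a log2 change of -2.24 (SE 0.27, adjusted p = 4.75e-05 in edgeR). No UMI of it was counted in the P8a cones, where 3 UMIs would be 11.9 CPM, and the cones of P12a and P12b had 23.3 and 13.7 CPM. The precursors had 23.8, 93.2 and 64.2 CPM. The lowest precursor sum, in P8a, thus lay just above the highest cone sum, in P12a. This row was highest in amacrine cells, at 164 to 228 CPM in the same libraries, and bipolar cells had 79.2 to 123 CPM.

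Row 21040 had a log2 change of -2.02 in cones (SE 0.13, adjusted p = 3.46e-08 in edgeR). Its level was 55.3, 139 and 57.3 CPM in the cones of P8a, P12a and P12b and 137, 548 and 243 CPM in the precursors. On this unscaled CPM the P8a precursors were slightly below the P12a cones, on the scaled CPM of the rule (150 and 133) they were above, and within each library the precursors were higher on both. Bipolar cells had the most, 499 to 793 CPM. When the 183 cells nearest the bipolar profile were left out, an alternative chosen after the data were seen, the change was -1.04 on the log2 scale. Row 21040 was itself in the set of bipolar rows described below, so leaving out these cells favours a smaller change. That alternative kept 11 precursors in P12a and 48 in P12b.

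**Figure D2:**
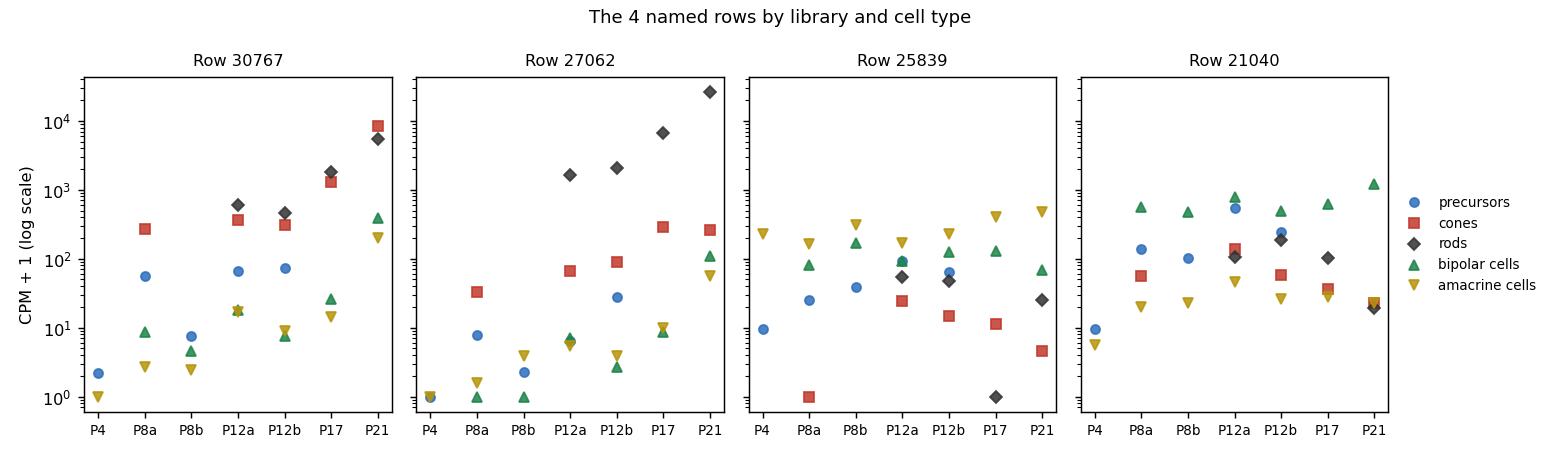
Level of the 4 named rows in each library (x axis), as CPM plus 1 on a log scale (y axis), in precursors, cones, rods, bipolar cells and amacrine cells, 1 point for each sum over the cells of a type. In P8a, P12a and P12b the cones lie above the precursors for rows 30767 and 27062 and below them for rows 25839 and 21040, rods are the highest type plotted at P12 for rows 30767 and 27062, amacrine cells are highest for row 25839 and bipolar cells for row 21040.

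In libraries outside the comparison, row 30767 stood at 1.22 CPM in P4 precursors (1 UMI), 6.59 CPM in P8b precursors, 1299 CPM in P17 cones and 8346 CPM in P21 cones, beside 1837 and 5422 CPM in the rods of those libraries. Row 27062 was not counted in P4 precursors, had 1.25 CPM in P8b precursors, and reached 291 CPM in P17 cones and 257 CPM in P21 cones beside 6777 and 25940 CPM in the rods of those libraries. At P21 bipolar cells had 110 CPM of row 27062 and 388 CPM of row 30767, more than at any earlier age. The same held for amacrine cells (55.9 and 201 CPM), Müller glia, which are support cells (73.4 and 190 CPM), and ganglion cells (20.5 and 81.55 CPM). The source of this rise outside photoreceptors was not tested. Of the 2 rows that fell, cones had 10.3 and 3.51 CPM of row 25839 and 34.8 and 21.6 CPM of row 21040 at P17 and P21. The P8b precursors had more, 37.7 and 101 CPM. The P4 precursors had 8.55 CPM of each (7 UMIs), less than the P17 cones for both rows and than the P21 cones for row 21040.

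To place the changes among retinal cell types without gene names, sets of type-specific rows were chosen in P4, P8b, P17 and P21 and read in the 3 libraries. A row belonged to the set of a type when its mean level there was at least 50 CPM and at least 4 times that in every other type. A shared photoreceptor set held rows at least 50 CPM in both cones and precursors and at least 4 times their level in every type other than rods. The cones used to choose the sets were those of P17 and P21 and the precursors those of P4 and P8b. Type and age of cones and precursors therefore cannot be told apart in the choice of rows.

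The cone set held 22 rows. Of the 16 that passed the filter on low counts, 14 were called higher in cones and none lower, against 3.11% and 3.69% of all tested rows. A row could pass the filter on the sums of 1 type alone, which here and in the sets below favours rows that differ between the types. Their median log2 change was 1.27 against -0.01 for all tested rows. Together its rows made up 0.431% of the UMIs of the cones in P8a, 0.785% in P12a and 0.913% in P12b. In precursors they made up 0.161%, 0.215% and 0.387%. The ratio averaged 1.51 ± 0.32 on the log2 scale (SD, n = 3), or 2.84-fold. Precursors stood between cones and bipolar cells, which had 0.0282% to 0.0411%, and late neurogenic progenitors, cells about to form neurons, were at 0.0215% to 0.0372%.

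All 8 rows of the shared photoreceptor set passed the filter and were called higher in cones (against 3.11% of all tested rows), with a median log2 change of 0.80. They made up 0.149%, 0.2% and 0.212% of the UMIs of cones and 0.0865%, 0.0998% and 0.125% of those of precursors in P8a, P12a and P12b, a ratio of 0.85 ± 0.13 on the log2 scale (SD, n = 3). Bipolar cells had at most 0.00857%. Rows common to cones and precursors of other libraries were thus about 1.8-fold higher in cones, a smaller ratio than that of the cone set in each library. Cone rows were chosen at no less than 4 times their level in precursors, which favours this order.

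The rod set held 36 rows, of which 15 passed the filter, 4 were called higher in cones and none lower, against 3.11% and 3.69% of all tested rows. Its ratio of cones to precursors was 0.57 ± 0.15 on the log2 scale (SD, n = 3). Its level was 0.0806% to 0.0988% of UMIs in cones and 0.055% to 0.073% in precursors, far under the 1.14% and 1.2% in the rods of P12a and P12b. Bipolar cells had 0.024% to 0.036%.

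The bipolar set went the other way. Of its 32 rows 25 passed the filter, 20 were called lower in cones (against 3.69% of all tested rows) and none higher, with a median log2 change of -1.41. Precursors had 0.227% of their UMIs in the set in P8a, 0.433% in P12a and 0.432% in P12b, and cones 0.119%, 0.175% and 0.139%. The level in precursors was 2.45-fold that in cones (1.29 ± 0.35 on the log2 scale, SD, n = 3). Bipolar cells had 0.633%, 0.782% and 0.73%, and late neurogenic progenitors 0.0638% to 0.0844%, so precursors lay between these neighbours and cones lay above the progenitors. With the cells nearest the bipolar profile left out, chosen after the data were seen, the set was 1.14 lower in cones on the log2 scale. This omission favours a smaller difference in the set and left only 11 precursors in P12a and 48 in P12b.

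Of 153 rows in the Müller glia set, 52 passed the filter, 14 were called lower in cones (against 3.69% of all tested rows) and none higher, and their median log2 change was -0.50. The level of the whole set differed mainly in P8a, where it was 0.593% in cones and 1.05% in precursors, and less in P12a (0.651% and 0.733%) and P12b (0.428% and 0.456%). Müller glia, the support cells of the retina, had 3.16% to 4.68%, and late neurogenic progenitors had 0.704% to 1.03%. In P12b, where the bipolar set differed most between the types, the Müller glia set differed least.

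Few rows of the remaining sets were called, and their counts are to be read against 3.11% of all tested rows higher and 3.69% lower. In the ganglion cell set 1 of 26 tested rows was lower, in the horizontal cell set none of 13, in the late progenitor set none of 6, in the amacrine set 1 of 3 was higher, and in the early neurogenic set 1 of 5 was higher and 1 lower. The level ratios of these sets between cones and precursors averaged 0.19 or less in size on the log2 scale, and each had an SD of 0.25 or more. In the amacrine and early neurogenic sets the median row was lower in cones (-0.12 and -0.45) while the summed level was higher (0.15 and 0.09).

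**Figure D3:**
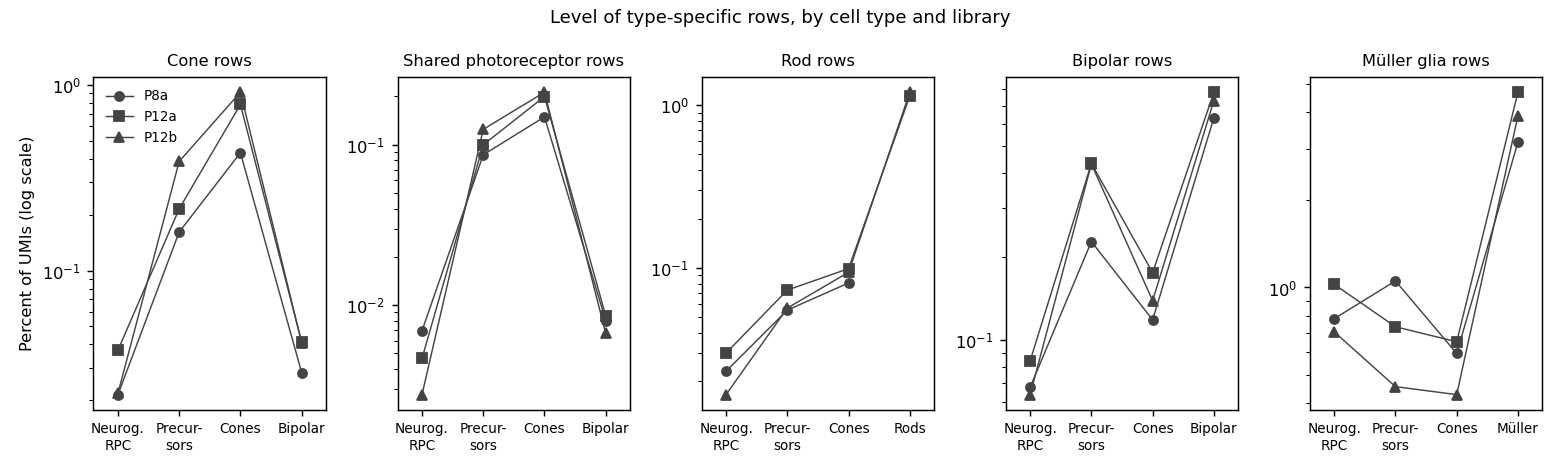
Percent of UMIs (y axis, log scale) in 5 row sets by cell type (x axis), with a marker and line for each of the 3 libraries. Cone, shared photoreceptor and rod rows are higher in cones than in precursors in every library and bipolar rows are lower, with late neurogenic progenitors (Neurog. RPC) and bipolar cells, rods or Müller glia beside them.

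The called rows were then set against the mean levels of the other types in the same libraries, with rods left aside for their low numbers. Cones exceeded every such type in 233 of the 288 higher rows (80.9%), against 20.6% of all tested rows, a share that the choice of rows by their level in cones favours. Precursors exceeded every such type in 173 of them (60.1%), against 15.3% of all. Among the other types, bipolar cells were highest in 119 of the 342 lower rows (34.8%) and in 72 of the 288 higher rows (25%), against 17.1% of all tested rows. Late neurogenic progenitors were highest in 49 lower rows (14.3%) and 16 higher rows (5.56%), against 8.18%. Precursors exceeded every such type in 7 of the lower rows (2.05%) and cones in none.

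The sums do not show whether single precursors carried cone and bipolar rows together. Each cell was therefore thinned to 1000 UMIs, and a cell was said to carry a set when it had at least 3 UMIs of it. The median precursor had 2 UMIs of the cone set in P8a, 1.5 in P12a and 4 in P12b, and the median cone 4, 8 and 9. Of the bipolar set, the median precursor had 1, 3 and 4 UMIs, the median cone 1 in each library and the median bipolar cell 5, 7 and 6. The median amacrine cell had none of either set.

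Precursors with both sets made up 8.92% in P8a (14 of 157, 5.39% to 14.4%), 22.2% in P12a (8 of 36, 11.7% to 38.1%) and 50.5% in P12b (47 of 93, 40.6% to 60.5%). Among cones the shares were 6.1% (2.63% to 13.5%), 16.3% (13.5% to 19.6%) and 16% (12.6% to 20%). Bipolar cells carried both in 1.03% to 1.59% and amacrine cells in at most 0.213%. The share in P12b precursors exceeded that in P12b cones beyond counting error, and the intervals of precursors and cones overlapped in P8a and P12a. The shares with both were close to the product of the share that carried each set, which was 9.64%, 20.4% and 47.3% in the precursors and 6.78%, 17.4% and 16.4% in the cones of P8a, P12a and P12b. The sets are thus not shown to occur together more or less often than their own shares give. Before thinning, precursors with both sets had a median of 3760, 4444 and 6384 UMIs in P8a, P12a and P12b, against 4338, 4360.5 and 7056 UMIs in all precursors. Cones with both had 2590, 4483.5 and 5973 UMIs, more than the 2341, 3256 and 5256 UMIs of all cones in each library, and the part of depth in these shares was not tested.

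The other precursors divided into cells with cone rows only (25.5%, 11.1% and 19.4% in P8a, P12a and P12b), with bipolar rows only (19.1%, 38.9% and 17.2%) and with neither (46.5%, 27.8% and 12.9%). At medians of 1 to 4 UMIs a limit of 3 UMIs also divides cells by counting error, so these classes are ranges of a count and not kinds of cell. Whether a barcode held 1 cell was not tested. Across libraries 8 barcodes were shared by P12a and P12b, 1 of them among the cones and precursors, and 2 each by P8a and either P12 library.

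**Figure D4:**
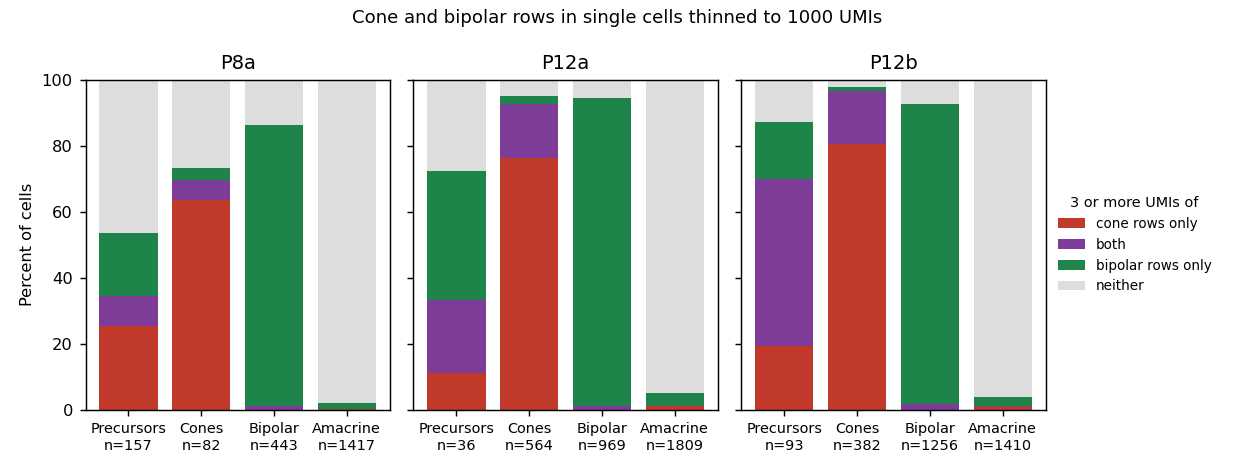
Percent of cells (y axis) that carried at least 3 UMIs of the cone rows only, of both sets, of the bipolar rows only or of neither, after thinning each cell to 1000 UMIs, by cell type (x axis, with the number of cells) in each of the 3 libraries. Precursors with both sets range from 8.92% in P8a to 50.5% in P12b, against 1.03% to 1.59% of bipolar cells.

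Whether the difference between cones and precursors had the same size at both ages was tested as the interaction of type and age, with 1 residual degree of freedom. P8 was a single library, P8a, so age and library cannot be told apart in this test. It was called for 18 of 9272 rows (0.194%), 13 with a more positive change at P12 and 5 with a more negative one, and 593 rows (6.4%) had an unadjusted p below 0.05. Of the 630 rows that differed between the types, 356 had the larger absolute change at P12, as the mean of 2 libraries against 1 at P8. The same share over all tested rows was not computed, so the count of 356 is not read further. None of the 4 named rows was among the 18, with adjusted p of 0.85 to 0.99 in edgeR's test. The cone set rose with age in both types, from 0.431% to 0.785% and 0.913% in cones and from 0.161% to 0.215% and 0.387% in precursors, as values of 1 library at P8 and 2 at P12 with no test. Its rows were chosen as high in cones of P17 and P21 over precursors of P4 and P8b, a choice that favours a rise with age.

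The called rows were then read in libraries that the comparison had not used, as cones of P17 and P21 against precursors of P4 and P8b. Type and age cannot be told apart there. Of 11785 rows tested, 321 were called (2.72%). All 288 higher rows were tested, and 263 of them (91.3%) had the same sign, against 51.2% of the 9216 rows tested in both comparisons. They were called higher in 80 cases (27.8%, against 1.52% of the rows tested in both) and lower in none. Among the rows tested in both comparisons 140 were called higher there, and the 80 were 57.1% of these. Of the 342 lower rows 333 were tested, 292 (87.7%) had the same sign, against 48.8% of all, and 38 were called lower (11.4%, against 0.879%). These 38 were 46.9% of the 81 called lower there among the rows tested in both. In 2 cases a lower row was called higher. The median log2 change in these libraries was 1.87 over the higher rows and -1.51 over the lower rows, against 0.02 over all.

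**Figure D5:**
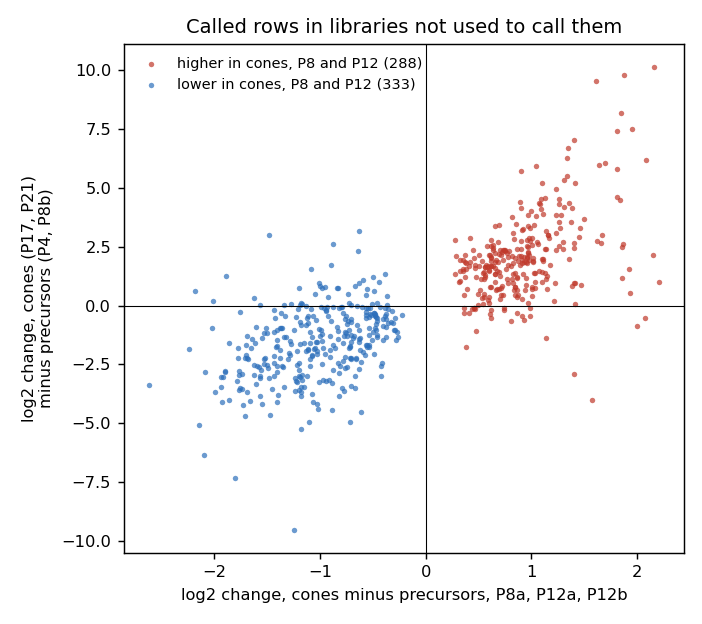
log2 change of each called row between cones and precursors of P8a, P12a and P12b (x axis) and between cones of P17 and P21 and precursors of P4 and P8b (y axis). Of the rows higher in cones on the x axis 91.3% are also higher on the y axis, and of those lower 87.7% are also lower.

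The number of calls in these libraries moved with each of them, as did the number of rows tested. All 4 gave 174 higher and 147 lower of 11785 rows. The calls were 531 and 633 of 13700 rows without P4, and 347 and 299 of 11772 without P8b. They were 1077 and 1068 of 13430 without P17, and 160 and 104 of 12163 without P21. Of the named rows, row 30767 had a log2 change of 10.1 (SE 1.24, adjusted p = 0.0154 in edgeR) and row 27062 one of 8.18 (SE 0.64, adjusted p = 0.00535). Row 25839 (-1.84, adjusted p = 0.22) and row 21040 (-0.95, adjusted p = 0.581) did not pass the threshold.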

How the data were processed

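Per the study's methods, the authors aligned reads with Cell Ranger 3.1.0 to a ground squirrel assembly and named cell types in Seurat 4.0.4 from marker genes of clusters. The submitters' notes also list GRCm38, a mouse build. Cell filters and any doublet removal by the authors were not given in the sources used, and neither was applied here. The values are the UMI counts per row and cell that the authors deposited, with their table of time points and cell types. The list of 30265 gene names carries no row numbers for 34181 matrix rows, so planned gene lists could not be used. P1 (2 suffixes, 1 sample) was not analysed. The letters a and b do not correspond to replicate numbers in the labels.

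Sums per library and type were filtered with filterByExpr, TMM-scaled and tested in edgeR 4.0.16 (R 4.3.3), here in place of the study's test over single cells. The SE is the log2 change divided by the square root of F. CPM of single rows in the text are unscaled, while medians over called rows, the overlap of sums and the plot of mean CPM used TMM scaling (trimmed mean of M-values). Both types of a library came from one preparation, so the library was the block. Deviations from the type means correlated at 0.379, 0.237 and 0.640 within P8a, P12a and P12b and at -0.438 to 0.0352 between libraries. The deviations of a type cancel out over its libraries, so positive values within libraries lower those between them. Profiles were correlated over 2000 rows. The fits were tested on simulated counts. The members, row sets and rules were chosen with earlier results of these data known. Alternatives included DESeq2 1.42.0, other filters, thinned sums and omitted cells or libraries.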

Additional observations from a re-analysis of the deposited data

Results flagged for a closer look

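The change from precursors to cones differed between P8a, the single P8 library, and the P12 libraries in 18 rows by the interaction test in edgeR, in which age and library cannot be told apart. Of these, 9 had opposite signs in P8a and at P12, 2 had the larger absolute change at P12, and 9 were among the 630 rows called over all libraries.

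The level of the late progenitor set was lower in cones at P8 (-0.11 on the log2 scale in P8a) and higher in both P12 libraries (0.33 in each), a difference of 0.44. This difference was not tested. In the late progenitors themselves the set took 0.0421% of UMIs in P8a, 0.155% in P12a and 0.0226% in P12b, against 0.0458%, 0.0374% and 0.0387% in cones and 0.0494%, 0.0296% and 0.0307% in precursors. In P8a and P12b the late progenitors thus had less of the set than either type. Its rows were chosen in other libraries, so it is not a measure of late progenitor likeness there.

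The ganglion cell set was higher in cones at P8 (0.29 in P8a) and lower in P12a (-0.32) and P12b (-0.31), a difference of -0.61, also not tested. Its level was 0.102% to 0.208% of UMIs in cones and 0.127% to 0.202% in precursors, against 3.27% to 4.39% in ganglion cells.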

How the results depend on the processing

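Against 288 rows higher and 342 lower in cones of 9272 tested, DESeq2's Wald test called 80 and 96 of 9272 (all 176 among the 630 rows). Other settings also changed the number of rows tested. Sums thinned to 182302 UMIs gave 81 and 82 of 3379 rows, and cells without those nearest the bipolar profile 180 and 208 of 7480. Of these 180 and 208 rows, 161 and 139 were among the 288 and 342. P8b precursors added with the time point as covariate gave 1 and 6 of 9838 rows, and no replicate block 1 and 0 of 9272. Leaving out 1 library gave 98 to 367 higher and 116 to 428 lower, with 7252 to 11739 rows tested. The named rows kept their direction under every alternative in which they were tested, 13 for rows 30767 and 21040 and 10 for rows 27062 and 25839. Rows 27062 and 25839 had no value in the thinned sums or without the cells nearest the bipolar profile. Rows 27062, 25839 and 21040 were not called without the library block (edgeR adjusted p = 0.422, 0.473 and 0.422), and none of the 4 with P8b added (edgeR adjusted p = 0.0757 to 0.151).

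The 18 rows of 9272 that differed between ages became 34 of 9272 with DESeq2's size factors and 10 of 23707 without the filter. For the other libraries, no filter gave 848 higher and 843 lower of 23584 rows against 174 and 147 of 11785. There, leaving out 1 library gave 160 to 1077 and 104 to 1068, with 11772 to 13700 rows tested. Choosing sets at 2-fold moved the log2 level ratio of the cone set to 1.10, the bipolar set to -0.88 and the rod set to 0.38, and at 8-fold the rod set to 0.86, the amacrine set to 1.48 and the early neurogenic set to 0.62. No set whose 3 libraries shared a sign changed it.

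Keeping only cells nearest their own type left 2 cones in P8a and 7 precursors in P12a and was not run. The age difference without 1 P12 library has no residual degrees of freedom and was not run. The shared set had 1 row at 8-fold and gave no value. The 36 precursors of P12a, with 182302 UMIs, limit the depth of the comparison. The cause of these shifts was not tested.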
